A study of Mus musculus with 32 samples.

Results

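The 39 genes described here encode the enzymes of glycolysis and gluconeogenesis, the lactate dehydrogenases, a glucose and a lactate transporter, and the enzymes that steer fructose phosphates and pyruvate into or out of these routes. They were chosen by name from the table of read counts: an Ensembl gene identifier had to belong to 1 of the 39 listed mouse symbols. All 39 were found among the 53700 genes of the table, and all 39 passed the filter on low counts, with 13961 genes that passed in all. No measured value entered the choice, but earlier results of these data were known when it was made.

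RNA was sequenced from 32 kidneys of male C57BL/6 mice of 1 line, iKspCre-Pkd1del, in which LoxP sites flank exons 2 to 11 of Pkd1 and a tamoxifen-inducible Cre is driven by the kidney-tubule promoter of Ksp-cadherin. The 8 wildtype kidneys came from mice of this line that were given no tamoxifen and are labelled as 109 days old. The 12 PKD kidneys came from mice dosed by gavage with 150 mg/kg tamoxifen on postnatal days 18 and 19, which deletes Pkd1 in tubule cells, and collected at 95 days. The 12 PKD + Salsalate kidneys were treated in the same way and came from mice that ate chow with 2.5 g/kg salsalate, a prodrug of salicylate and an activator of AMP-activated protein kinase, for the last 2 weeks. By the study's methods the PKD animals were picked for a similar, mild cystic phenotype. Labelled age, tamoxifen and Pkd1 loss all separate wildtype from the other groups and cannot be told apart. The protocol names day 95 for collection, which differs from the age on the wildtype labels. The whole-gene count of Pkd1 also holds reads of exons that were not deleted and does not check the deletion (53.1 to 86.4 CPM in wildtype, 70.7 to 113 in PKD).

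Glycolysis splits glucose into pyruvate in the cytosol, and lactate dehydrogenase turns pyruvate into lactate and back. Gluconeogenesis runs the route in reverse, with its own enzymes at the irreversible steps, and in the kidney it is a property of the proximal tubule, which makes glucose from lactate and glutamine and burns little of it. Distal segments use glucose as fuel, and most steps have isoforms of which 1 prevails in a given tissue, so the balance of isoforms is followed below beside the level of each gene.

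Libraries of the wildtype group fell into 2 sets by name. The names of replicates 1 to 5 end in R, and those of replicates 6 to 8 do not. The summed level of 12 proximal tubule markers was between 16457 and 20077 CPM (counts corrected for sequencing depth with trimmed mean of M-values, TMM, factors) in the first set and between 23359 and 27031 CPM in the second. It was 16691 to 21119 CPM in PKD and 14229.5 to 19840 CPM in PKD + Salsalate kidneys, so all 3 groups held the labelled tissue. Loop of Henle and distal nephron markers summed to 3708 to 4779 CPM in the first set and 5408 to 5820 CPM in the second. Summed injured tubule markers (133 to 158 and 173 to 178 CPM) and liver markers (512 to 905 and 1062 to 1729 CPM) also separated the sets. Sums of muscle, red cell, leukocyte and fibroblast markers overlapped. The share of reads counted on genes was 73.6 to 76.4% in the first set and 80.9 to 83.1% in the second. For 18 members all 3 kidneys of the second set lay above all 5 of the first, for 5 they lay below, and for 16 the sets overlapped. What the ending stands for was not given in the sources used here, so members called between PKD and wildtype are also given against each set alone, with the first set first. PKD replicate 10 held 6584 CPM of 12 liver markers, against at most 1777 CPM in the other PKD kidneys, and 7 of the 39 members had their highest PKD value in it, at most 1.43 times the median of the other 11. Counts on genes ranged from 11193136 to 109807664 per kidney, and single members had between 7 and 245836 reads in a kidney.

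In PKD against wildtype kidneys, 8 of the 39 genes rose and 13 fell by edgeR's quasi-likelihood test (adjusted p under 0.05), and 18 did not pass. That is 53.8% of the members beside 49.1% of all genes tested, with 24.1% of all genes higher and 25.0% lower. The median log2 fold change of the members was -0.06, and that of all genes -0.009. The groups did not overlap for 5 members, beside 7.28% of all genes: Pfkm, Pgam2, Pkm and Pdk1 were lower and Fbp2 was higher in each of the 12 PKD kidneys than in any wildtype kidney. Share and median were thus near those of all genes. Within a step the isoforms differed: Pfkm fell and Pfkp rose, and Pgam2 fell while Pgam1 had no call. In bulk tissue, fewer cells of a type and less RNA per cell cannot be told apart.

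The stretches of 250 bases before the start of the canonical transcript are shown for these 5 genes, for Pfkp, the isoform set beside Pfkm below, and for Ldha, whose ratio to Ldhb moved with salsalate. Each is read 5′ to 3′ on the strand of the gene from the mouse genome build GRCm39, with starts from GENCODE release M39. Capitals mark 3 motifs searched on both strands: ACGTG and also GCGTG, the 2 forms of the core of the hypoxia response element, and TATAAA, the core of the TATA box.
Pfkm, chr15:98006074-98006323 (+): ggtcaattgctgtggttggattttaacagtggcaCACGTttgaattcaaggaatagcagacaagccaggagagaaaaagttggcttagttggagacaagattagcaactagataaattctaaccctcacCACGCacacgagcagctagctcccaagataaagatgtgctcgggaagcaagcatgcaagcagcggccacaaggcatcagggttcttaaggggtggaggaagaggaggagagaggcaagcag
Pfkp, chr13:6698971-6699220 (-): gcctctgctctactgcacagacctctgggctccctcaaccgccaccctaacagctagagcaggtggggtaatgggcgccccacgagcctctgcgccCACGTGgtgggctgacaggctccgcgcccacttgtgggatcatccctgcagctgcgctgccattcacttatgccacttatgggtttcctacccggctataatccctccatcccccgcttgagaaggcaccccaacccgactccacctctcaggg
Pgam2, chr11:5753760-5754009 (-): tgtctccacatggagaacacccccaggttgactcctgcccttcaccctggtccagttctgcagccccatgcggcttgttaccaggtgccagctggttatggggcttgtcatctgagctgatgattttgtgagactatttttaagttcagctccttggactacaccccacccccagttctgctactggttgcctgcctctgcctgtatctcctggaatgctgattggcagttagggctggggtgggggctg
Pkm, chr9:59563385-59563634 (+): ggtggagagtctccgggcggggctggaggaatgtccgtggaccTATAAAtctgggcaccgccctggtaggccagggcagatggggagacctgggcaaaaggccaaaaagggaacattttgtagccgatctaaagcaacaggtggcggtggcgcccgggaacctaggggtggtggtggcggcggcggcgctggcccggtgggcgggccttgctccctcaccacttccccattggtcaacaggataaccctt
Pdk1, chr2:71703238-71703487 (+): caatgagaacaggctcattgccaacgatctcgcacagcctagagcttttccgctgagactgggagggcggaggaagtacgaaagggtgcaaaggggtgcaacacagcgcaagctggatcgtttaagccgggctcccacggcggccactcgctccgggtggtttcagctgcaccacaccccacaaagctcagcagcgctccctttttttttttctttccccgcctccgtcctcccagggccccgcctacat
Fbp2, chr13:63006553-63006802 (-): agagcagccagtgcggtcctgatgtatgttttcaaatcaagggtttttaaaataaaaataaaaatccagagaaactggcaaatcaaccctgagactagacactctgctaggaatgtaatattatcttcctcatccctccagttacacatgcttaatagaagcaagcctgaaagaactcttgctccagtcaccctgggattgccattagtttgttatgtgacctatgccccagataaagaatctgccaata
Ldha, chr7:46495013-46495262 (+): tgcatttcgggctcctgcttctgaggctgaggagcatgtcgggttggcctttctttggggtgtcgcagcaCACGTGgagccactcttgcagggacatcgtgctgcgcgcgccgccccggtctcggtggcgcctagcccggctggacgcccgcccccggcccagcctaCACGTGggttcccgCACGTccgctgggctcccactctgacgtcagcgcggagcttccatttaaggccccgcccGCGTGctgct
The stretch of Ldha held 5 matches of ACGTG and 26 CpG pairs. Pfkp held 2 matches of ACGTG, Pfkm 1, and Pgam2, Pkm, Pdk1 and Fbp2 none. CACGTG reads the same on both strands and counts as 2 matches. ACGTG stood in 12 of the 39 members' stretches (30.8%) and in 17.1% of all 21106 stretches of protein-coding genes read in this way. Genes of 1 autosome and of the mitochondrial genome were not among the 21106. GCGTG stood in 30.8% of the members' and 31.1% of all, and TATAAA in 5.13% and 12%. A match is a description of the letters in this window only.

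**Figure D1:**
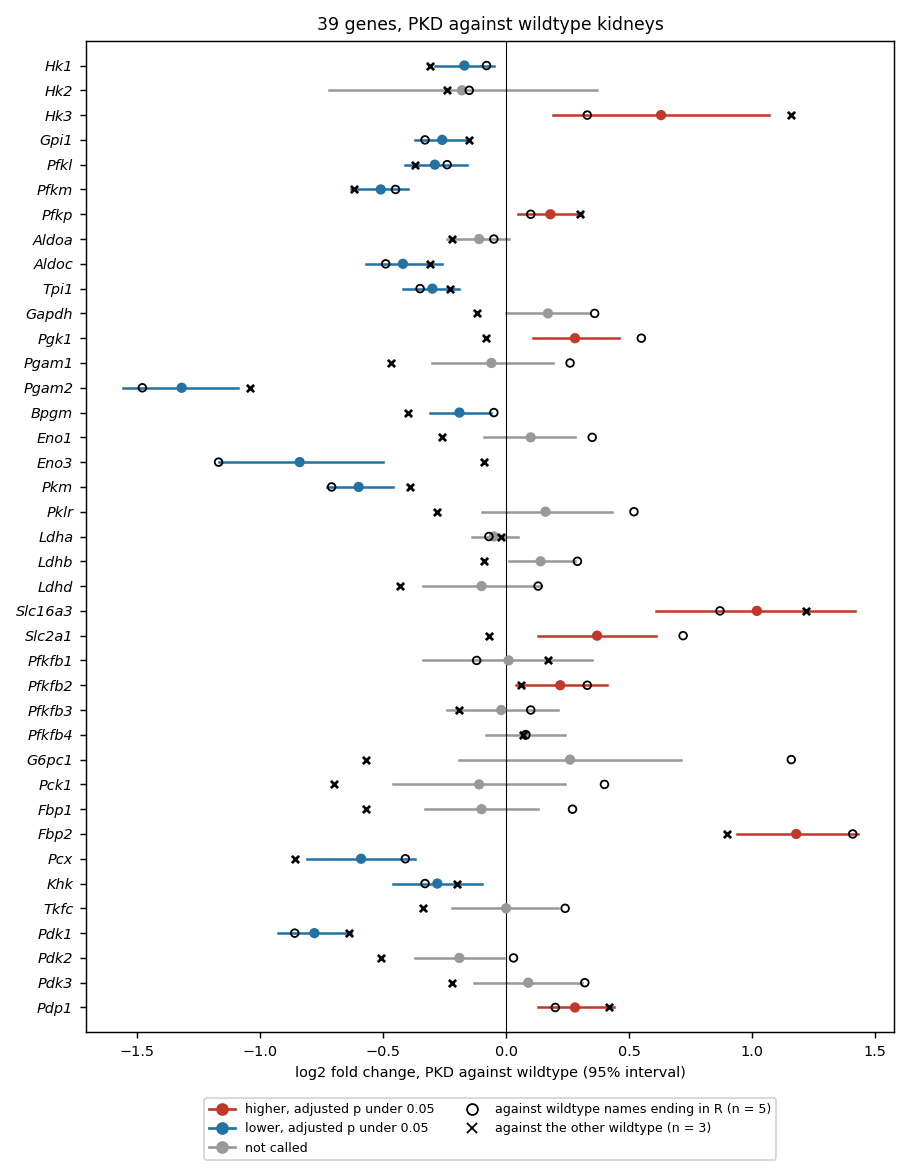
Log2 fold change (horizontal axis) of each of the 39 genes (rows, in pathway order) in PKD (n = 12) against wildtype (n = 8) kidneys, with its 95% interval as a bar. Open circles give the same value against the 5 wildtype kidneys with names ending in R and crosses against the other 3. Pgam2 lies farthest to the left at -1.32 and Fbp2 farthest to the right at 1.18, and for G6pc1 the circle and the cross lie on opposite sides of 0.

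Slc2a1 encodes GLUT1, a glucose transporter on the blood side of tubule cells. Its level was between 17.9 and 46.7 CPM (median 27.3) in wildtype, between 34.0 and 48.0 CPM (median 38.8) in PKD and between 29.8 and 49.3 CPM (median 40.1) in PKD + Salsalate kidneys. All 12 PKD kidneys were above the wildtype median, though the ranges overlapped, and the log2 fold change against wildtype was 0.37 ± 0.12 (SE; adjusted p = 0.0104). The 3 wildtype kidneys of the second set lay within the PKD range: against them alone the value was -0.07 (adjusted p = 0.625), and against the first set 0.72 (adjusted p = 3.88e-07).

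Hexokinases trap glucose in the cell as glucose 6-phosphate. Per kilobase of transcript, Hk1 was the most abundant of the 3 in wildtype kidneys with a mean of 32.2 CPM per kilobase, against 1.07 for Hk2 and 0.547 for Hk3. Hk1 fell slightly in PKD kidneys (log2 fold change -0.17 ± 0.06, adjusted p = 0.0191), a call that was lost without wildtype replicate 7 (adjusted p = 0.0659). Against the first wildtype set alone Hk1 gave -0.08 (adjusted p = 0.262, not called) and against the second -0.31 (adjusted p = 0.00193). Hk2, the insulin-responsive form, varied widely within groups, from 1.97 to 14.1 CPM in wildtype and 4.75 to 14.3 CPM in PKD kidneys, and gave -0.18 ± 0.27 (adjusted p = 0.605). Hk3, the form of white blood cells, was between 0.444 and 3.28 CPM (median 1.65) in wildtype and between 2.30 and 3.34 CPM (median 2.57) in PKD kidneys. It rose by 0.63 ± 0.22 on the log2 scale (adjusted p = 0.0168) against all wildtype kidneys. Against the first set alone it gave 0.33 (adjusted p = 0.194, not called) and against the second 1.16 (adjusted p = 0.000923). Of the 6 leukocyte markers tested 5 rose and 1 fell. The summed level of the list was 106 to 158 CPM in wildtype and 230 to 335 CPM in PKD kidneys. The part of these markers in the Hk3 value was not tested.

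Glucose 6-phosphate isomerase and the phosphofructokinases carry the sugar to the committed step. Of these 4 genes 3 fell and 1 rose. Gpi1 fell from a mean of 629 ± 70.5 CPM (SD, n = 8) to 525.8 ± 27.4 CPM (SD, n = 12), a log2 fold change of -0.26 ± 0.06 (adjusted p = 0.000263). The value was -0.33 against the first wildtype set, and -0.15 against the second, where it was not called (adjusted p = 0.0609). Pfkm, the muscle form of phosphofructokinase, was between 61.4 and 79.1 CPM (median 70.3) in wildtype, between 39.2 and 53.9 CPM (median 49.7) in PKD and between 45.8 and 59.7 CPM (median 53.1) in PKD + Salsalate kidneys. Every kidney of both PKD groups lay below every wildtype kidney. The log2 fold change of PKD against wildtype was -0.51 ± 0.06 (adjusted p = 4.69e-09), with -0.45 against the first wildtype set and -0.62 against the second. Pfkl, the liver form, fell by 0.29 on the log2 scale (SE 0.06, adjusted p = 0.000324), with -0.24 and -0.37 against the sets. Pfkp, the platelet form, was between 41.9 and 52.9 CPM (median 48.2) in wildtype and between 49.3 and 60.1 CPM (median 53.2) in PKD kidneys. Its rise was small, 0.18 ± 0.06 (adjusted p = 0.0222), and was not called without wildtype replicate 8 (adjusted p = 0.0549) or against the first wildtype set alone (0.10, adjusted p = 0.233). Against the second it gave 0.30 (adjusted p = 0.00709).

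Read per kilobase, the order of the 3 phosphofructokinases in wildtype kidneys was Pfkl, Pfkm, Pfkp, with means of 23.4, 17.5 and 11.1 CPM per kilobase. In PKD kidneys Pfkl led with 19.2, and Pfkp and Pfkm followed with 12.6 and 12.3 CPM per kilobase. Within each kidney the ratio of 2 genes needs no scaling between libraries, so the pairs were also tested as log2 ratios of counts (exact permutation test over kidneys, adjusted over 66 tests of 22 pairs in 3 comparisons). The ratio of Pfkp to Pfkm counts was between 0.577 and 0.850 (median 0.708) in wildtype kidneys, between 0.947 and 1.44 (median 1.13) in PKD kidneys and between 0.801 and 1.28 (median 1.10) in PKD + Salsalate kidneys. Wildtype and PKD kidneys did not overlap. The difference on the log2 scale was 0.69 (95% interval 0.49 to 0.89, exact permutation p = 7.94e-06, the smallest that the 125970 splits allow, adjusted p = 0.000105), with 0.55 against the first wildtype set and 0.92 against the second.

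The enzymes that set fructose 2,6-bisphosphate, the activator of phosphofructokinase, were less changed. Pfkfb2, the heart and kidney form, rose by 0.22 on the log2 scale (SE 0.09, adjusted p = 0.0407), from a median of 6.76 to 8.06 CPM, and the call was lost in 13 of the 32 fits that left out 1 kidney. It gave 0.33 against the first wildtype set (adjusted p = 0.00804) and 0.06 against the second (adjusted p = 0.725). Pfkfb3, the form with the highest ratio of kinase to phosphatase activity, gave -0.02 ± 0.11, Pfkfb1 gave 0.01 ± 0.17 and Pfkfb4 gave 0.08 ± 0.08 (adjusted p = 0.899, 0.979 and 0.409).

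Aldolases split fructose 1,6-bisphosphate into 2 triose phosphates. In wildtype kidneys Aldoa, the muscle form, was at 782 and Aldoc, the brain form, at 8.10 CPM per kilobase. Aldoc was between 19.6 and 25.8 CPM (median 22.1) in wildtype, between 14.3 and 20.0 CPM (median 16.4) in PKD and between 17.4 and 24.2 CPM (median 20.8) in PKD + Salsalate kidneys. Every PKD kidney lay below the wildtype median, and the log2 fold change was -0.42 ± 0.08 (adjusted p = 3.76e-05), with -0.49 and -0.31 against the wildtype sets. Aldoa did not pass (-0.11 ± 0.06, adjusted p = 0.127). Tpi1, triose phosphate isomerase, fell from a median of 1113 to 915 CPM, by 0.30 on the log2 scale (SE 0.06, adjusted p = 5.51e-05), also against each wildtype set alone (-0.35 and -0.23).

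The steps from triose phosphate to pyruvate held the largest falls. Pgam2, the muscle form of phosphoglycerate mutase, was between 65.5 and 129 CPM (median 76.7) in wildtype, between 25.6 and 48.8 CPM (median 32.1) in PKD and between 26.7 and 45.8 CPM (median 39.2) in PKD + Salsalate kidneys. No kidney of either PKD group reached the lowest wildtype kidney. The log2 fold change was -1.32 ± 0.12 (adjusted p = 5.08e-11), with -1.48 and -1.04 against the first and second wildtype set. Pgam1, the widespread form, had similar means of 87.3 CPM in wildtype and 84.1 CPM in PKD kidneys (-0.06 ± 0.12, adjusted p = 0.726). Per kilobase Pgam2 was at 95.8 and Pgam1 at 48.5 CPM per kilobase in wildtype, and at 38.3 and 46.8 in PKD kidneys. Near-identical copies elsewhere in the genome covered 96.4% of the canonical transcript of Pgam1 and none of Pgam2. Reads that matched several places were not counted, so the values of Pgam1 may be too low. Which isoform was more abundant in either group therefore cannot be read from these values. The exons of Pgam2 lie wholly within Dbnl on the opposite strand, so its value rests on the counting by strand that the authors state.

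Eno3, the muscle enolase, was between 16.9 and 47.3 CPM (median 42.7) in wildtype and between 12.1 and 24.9 CPM (median 20.4) in PKD kidneys, and fell by 0.84 on the log2 scale (SE 0.16, adjusted p = 8.81e-05). This fall rested on the first wildtype set, whose mean was 44.2 CPM (-1.17 against it, adjusted p = 1.63e-08): against the second set, with a mean of 20.7 CPM, it was -0.09 (adjusted p = 0.720). Eno1, the widespread enolase, had no call (0.10 ± 0.09, adjusted p = 0.397), and was higher than the first set (0.35, adjusted p = 0.000233) and lower than the second (-0.26, adjusted p = 0.0116). Muscle tissue in the samples was low throughout: the summed level of 8 skeletal muscle markers was 1.90 to 4.83 CPM in wildtype and 1.65 to 5.06 CPM in PKD kidneys, none of the 8 passed the filter, and Myh4 was at 0 in all wildtype kidneys.

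Pkm, pyruvate kinase of the M type, was between 267 and 409 CPM (median 325) in wildtype, between 191 and 248 CPM (median 214) in PKD and between 210 and 249 CPM (median 226) in PKD + Salsalate kidneys. The groups did not overlap, and the log2 fold change of PKD against wildtype was -0.60 ± 0.06 (adjusted p = 3.67e-09), with -0.71 and -0.39 against the 2 sets. The counts do not separate its M1 and M2 splice forms. Pklr, the liver and red cell form, was at 7.72 CPM per kilobase against 135 for Pkm in wildtype and did not pass (0.16 ± 0.13, adjusted p = 0.307). The median ratio of Pkm to Pklr counts was 14.8 in wildtype kidneys, 7.31 with PKD and 8.38 with PKD + Salsalate, with ranges that overlapped. Its difference of -0.81 on the log2 scale (exact permutation, adjusted p = 0.00469) was -1.23 against the first wildtype set and -0.11 against the second (exact permutation, adjusted p = 0.694).

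Gapdh, often used as a reference gene, was between 1558 and 2650 CPM in wildtype and between 2056 and 2616 CPM in PKD kidneys (0.17 ± 0.08, adjusted p = 0.0874). It was higher than the first wildtype set by 0.36 on the log2 scale (adjusted p = 0.000148) and gave -0.12 against the second (adjusted p = 0.233). Pgk1, which makes the first ATP of the route, rose from a median of 353 to 473 CPM (0.28 ± 0.08, adjusted p = 0.00604), and gave 0.55 and -0.08 against the sets, the latter not called (adjusted p = 0.372). Bpgm, which makes the 2,3-bisphosphoglycerate of red cells, fell by 0.19 on the log2 scale (SE 0.06, adjusted p = 0.0115), with -0.05 against the first set (adjusted p = 0.484) and -0.40 against the second (adjusted p = 2.89e-06). All 6 red cell markers fell, and their summed level was 270 to 848 CPM in wildtype and 57.0 to 172 CPM in PKD kidneys. Their part in the value of Bpgm was not tested.

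Some of these counts are uncertain because near-identical copies of the gene lie elsewhere in the genome, and reads with more than 1 place were not counted. Stretches of at least 100 bases and 97% identity covered 96.4% of the canonical transcript of Pgam1, 95.7% of Pgk1, 90.8% of Pkm, 88.6% of Gapdh, 84% of Ldhb, 75.7% of Eno1, 54% of Tpi1 and 49.4% of Gpi1. Pfkm, Pgam2, Eno3, Pdk1, Fbp2 and Aldoc had none.

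**Figure D2:**
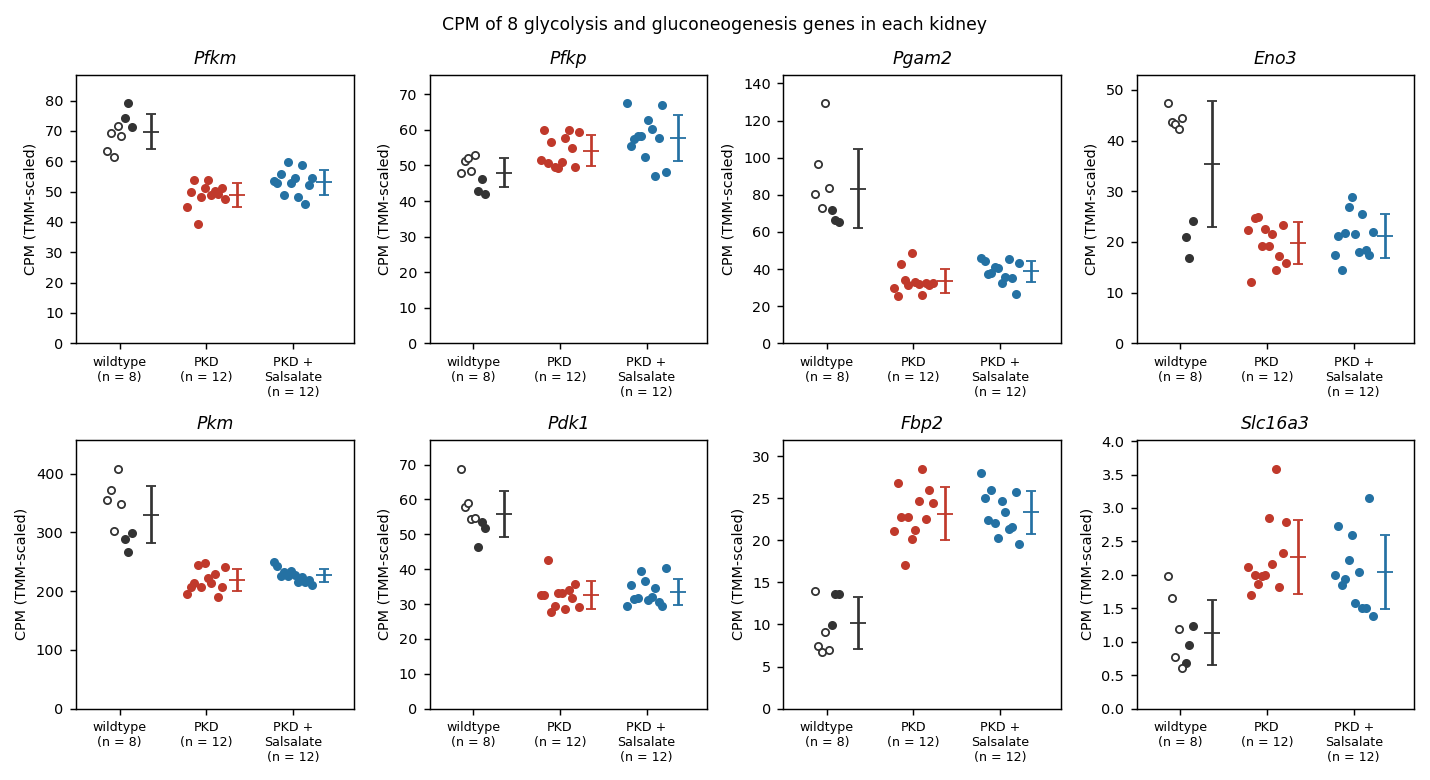
TMM-scaled CPM (vertical axis, from 0) of 8 genes in each kidney by group, with 1 point per kidney and bars for mean ± SD. Open wildtype points are the libraries with names ending in R. Pfkm, Pgam2, Pkm and Pdk1 lie lower and Fbp2 higher in all 12 PKD kidneys than in the 8 wildtype kidneys, while for Eno3 the 3 filled wildtype points, 16.9 to 24.2 CPM, lie within the PKD range.

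Of the 4 lactate genes 1 rose and 3 had no call. Slc16a3 encodes MCT4, the exporter of lactate from glycolytic cells, and was the least abundant member per kilobase in wildtype kidneys. It was between 0.608 and 1.99 CPM (median 1.07) in wildtype, between 1.70 and 3.59 CPM (median 2.06) in PKD and between 1.39 and 3.15 CPM (median 1.97) in PKD + Salsalate kidneys. All 12 PKD kidneys were above the wildtype median, and the log2 fold change was 1.02 ± 0.20 (adjusted p = 7.92e-05), with 0.87 and 1.22 against the 2 sets. Exons of other genes on the opposite strand overlap 44.1% of the exon bases of Slc16a3. The lowest count of Slc16a3 in a wildtype kidney was 8 reads. Ldha, the dehydrogenase subunit of glycolytic tissue, did not pass (-0.05 ± 0.05, adjusted p = 0.453), nor did Ldhb, the subunit of oxidative tissue (0.14 ± 0.07, adjusted p = 0.0733), or Ldhd, the mitochondrial D-lactate dehydrogenase (-0.10 ± 0.12, adjusted p = 0.510). Ldhb led per kilobase in wildtype kidneys with 848, then Ldha with 566 and Ldhd with 418 CPM per kilobase.

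Of the 5 genes of gluconeogenesis, Fbp2 rose, Pcx fell, and the 3 that define the proximal tubule route did not pass. Fbp2, the muscle form of fructose 1,6-bisphosphatase, was between 6.72 and 13.9 CPM (median 9.52) in wildtype, between 17.0 and 28.5 CPM (median 22.7) in PKD and between 19.5 and 28.0 CPM (median 22.9) in PKD + Salsalate kidneys. The ranges did not overlap, and the log2 fold change was 1.18 ± 0.12 (adjusted p = 8.83e-10), with 1.41 and 0.90 against the sets. Fbp2 remained the minor form: the ratio of Fbp1 to Fbp2 counts was between 39.8 and 104 in wildtype and between 24.7 and 38.1 in PKD kidneys, without overlap, a log2 difference of -1.27 (95% interval -1.62 to -0.93, exact permutation p = 7.94e-06, adjusted p = 0.000105). Pcx, pyruvate carboxylase, was between 409 and 722 CPM (median 517) in wildtype and between 280 and 463 CPM (median 376) in PKD kidneys, and fell by 0.59 on the log2 scale (SE 0.11, adjusted p = 2.89e-05), with -0.41 and -0.86 against the sets.

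G6pc1, which frees glucose from its phosphate, Pck1, which makes phosphoenolpyruvate, and Fbp1 gave 0.26 ± 0.22, -0.11 ± 0.17 and -0.10 ± 0.11 (adjusted p = 0.332, 0.610 and 0.475). For these the wildtype sets lay on either side of PKD. G6pc1 was at 73.3 to 113 CPM in the first set, 267 to 326 CPM in the second and 146 to 326 CPM in PKD kidneys. Against the first set alone it was higher in PKD by 1.16 on the log2 scale (adjusted p = 4.86e-08), and against the second lower by -0.57 (adjusted p = 0.00338). Pck1 gave 0.40 (adjusted p = 0.0231) and -0.70 (adjusted p = 0.00199), and Fbp1 gave 0.27 (adjusted p = 0.00432) and -0.57 (adjusted p = 6.64e-06). For these 3 genes, and for Eno1, Pgam1 and Tkfc, the direction of the call thus depended on the set. Against the first set alone 16 members were higher and 11 lower, beside 30.7% and 28.9% of all genes. Against the second set alone 5 were higher and 19 lower, beside 20.9% and 19.9% of all genes. Called against both sets in 1 direction were 3 higher members (beside 11.5% of all genes), Fbp2, Pdp1 and Slc16a3, and 8 lower (beside 8.06%), Aldoc, Pcx, Pdk1, Pfkl, Pfkm, Pgam2, Pkm and Tpi1.

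**Figure D3:**
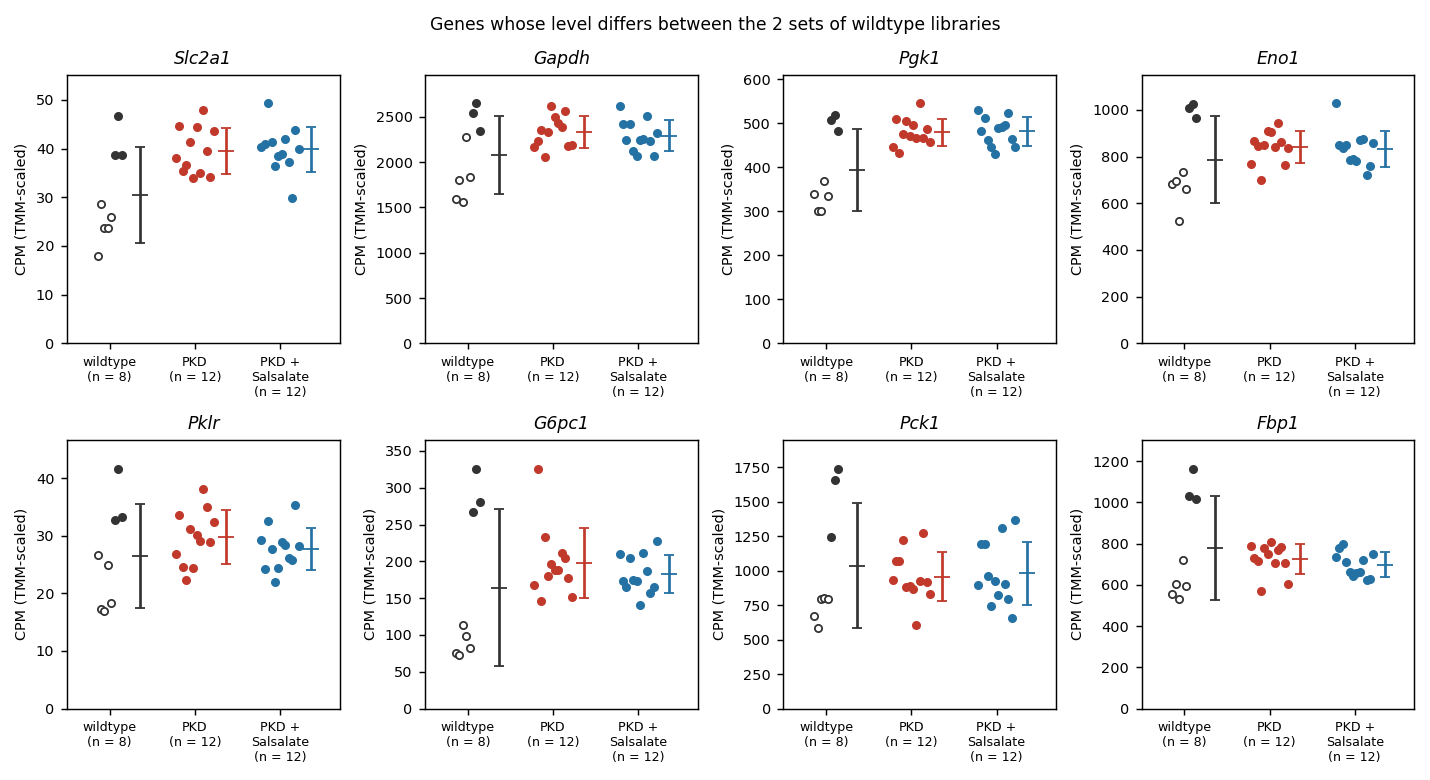
TMM-scaled CPM (vertical axis, from 0) of 8 genes in each kidney by group, with 1 point per kidney, bars for mean ± SD and open wildtype points for libraries with names ending in R. In the wildtype group the 3 filled points lie above the 5 open ones for all 8 genes, and for G6pc1 the open points at 73.3 to 113 CPM lie below every PKD kidney.

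Fructose breakdown starts with ketohexokinase, from Khk, which fell by 0.28 on the log2 scale (SE 0.09, adjusted p = 0.0103) from a median of 855 to 748 CPM. Against the first wildtype set it gave -0.33 (adjusted p = 0.00745) and against the second -0.20 (adjusted p = 0.182, not called). Tkfc, the triokinase of the same route, gave -0.00 ± 0.11 (adjusted p = 0.988).

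Pyruvate dehydrogenase kinases switch off the entry of pyruvate into mitochondrial oxidation, and the phosphatase from Pdp1 switches it on. Pdk1 was between 46.2 and 68.8 CPM (median 54.5) in wildtype, between 27.6 and 42.7 CPM (median 32.6) in PKD and between 29.5 and 40.4 CPM (median 31.8) in PKD + Salsalate kidneys. Every kidney of both PKD groups lay below every wildtype kidney, and the log2 fold change was -0.78 ± 0.07 (adjusted p = 2.88e-10), with -0.86 and -0.64 against the sets. Pdp1 rose from a median of 7.02 to 8.41 CPM (0.28 ± 0.07, adjusted p = 0.00214), with 0.20 and 0.42 against the sets. The ratio of Pdk1 to Pdp1 counts was between 6.68 and 10.1 in wildtype, between 3.41 and 5.22 in PKD and between 3.07 and 5.64 in PKD + Salsalate kidneys. Its log2 difference of -1.06 (95% interval -1.25 to -0.87, exact permutation p = 7.94e-06, adjusted p = 0.000105) was -1.06 and -1.07 against the 2 wildtype sets. Pdk2, the most abundant kinase per kilobase, gave -0.19 ± 0.09 (adjusted p = 0.0815), and Pdk3 gave 0.09 ± 0.11 (adjusted p = 0.498).

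Of the 22 pairs, 14 differed between PKD and wildtype kidneys. Most pairs were isoforms, and others were enzymes with opposing roles such as Pdk1 and Pdp1, Ldhb with Ldhd, or 2 transporters. These calls were by exact permutation test at an adjusted p under 0.05, 7 with a higher and 7 with a lower ratio. In none of the 3 comparisons was a share over pairs of other genes taken. Of all single genes, 49.1% were called in PKD against wildtype kidneys. Pgam1 to Pgam2 had a median ratio of 0.924 in wildtype and 2.60 in PKD kidneys (log2 difference 1.28, exact permutation, adjusted p = 0.000381), with 1.70 and 0.57 against the sets, the latter at adjusted p = 0.080. Pfkp rose relative to Pfkl (0.47, with 0.34 and 0.68 against the sets) and Pfkl relative to Pfkm (0.22, with 0.21 and 0.24, the latter at adjusted p = 0.106 by exact permutation), and Pdk1 fell relative to Pdk2 (-0.62), which was -0.15 against the second wildtype set (exact permutation, adjusted p = 0.239). With the second set alone as wildtype, 8 pairs were called, and the ratios of Eno1 to Eno3, Ldha to Ldhb and Hk1 to G6pc1, called with all kidneys, changed sign to -0.17, 0.07 and 0.28.

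**Figure D4:**
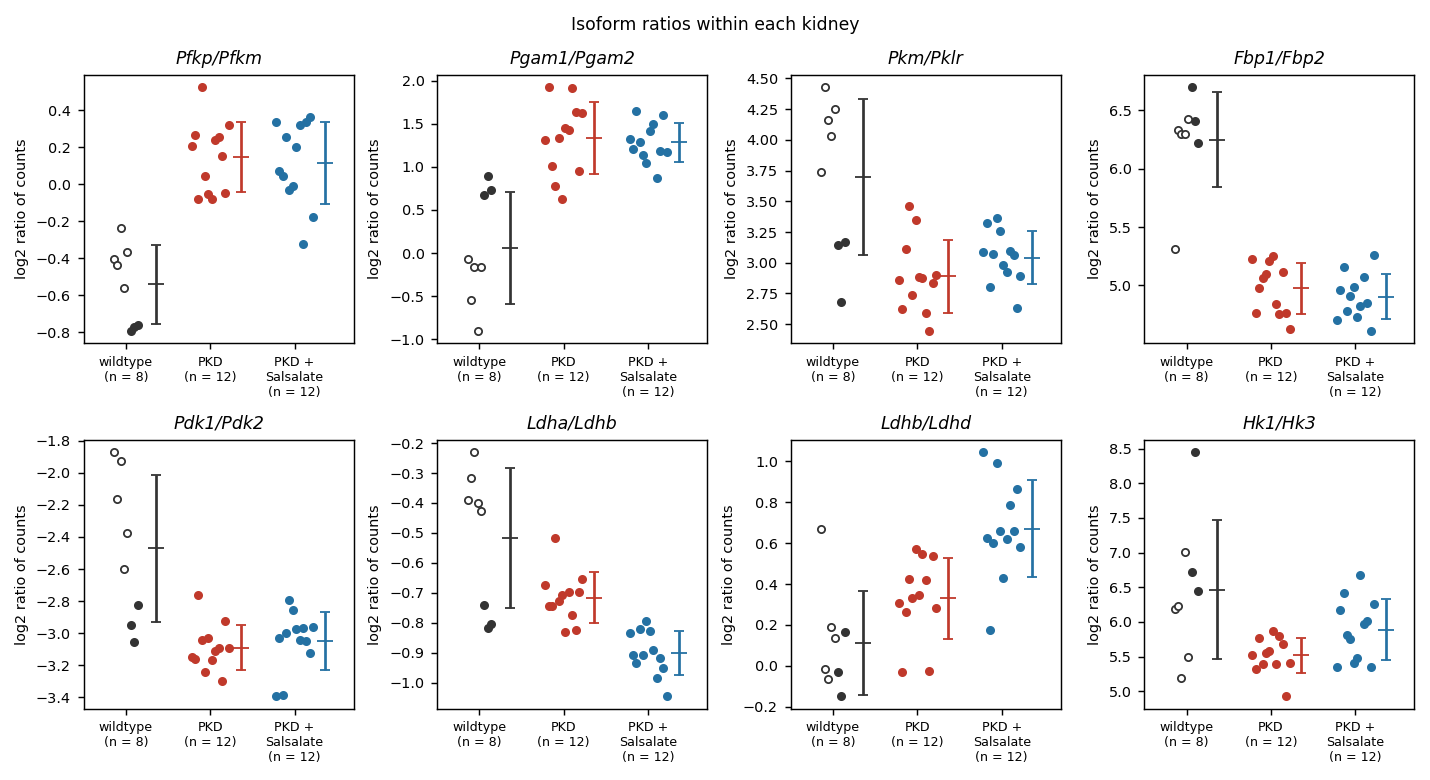
Log2 ratio of the counts of 2 genes (vertical axis) in each kidney for 8 pairs, with 1 point per kidney, bars for mean ± SD and open wildtype points for libraries with names ending in R. Pfkp/Pfkm and Fbp1/Fbp2 separate wildtype from PKD kidneys without overlap, and Ldha/Ldhb falls from a mean of -0.72 in PKD to -0.90 in PKD + Salsalate kidneys.

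Of 43 further genes of these routes, 36 passed the filter. In PKD against wildtype kidneys 5 of them rose and 12 fell, 47.2% of those tested, with a median log2 fold change of -0.04. Against both wildtype sets 3 of the 5 and 5 of the 12 were called in that direction, and 9 of the 17 calls were lost against 1 of the sets. Among transporters, Slc16a1, the lactate and pyruvate carrier MCT1, rose by 1.03 on the log2 scale (SE 0.19, adjusted p = 3.16e-05), with 1.56 against the first set and 0.48 against the second (adjusted p = 0.0684, not called). Slc2a3, the neuronal glucose transporter GLUT3, rose by 0.51 (SE 0.13, adjusted p = 0.00186), with 0.51 and 0.50 against the sets. Slc2a4, the insulin-responsive GLUT4 of muscle and fat, was between 22.063 and 38.9 CPM in wildtype and between 11.4 and 22.056 CPM in PKD kidneys, a fall of 0.94 (SE 0.11, adjusted p = 1.57e-08), with -0.75 and -1.22 against the sets. Eno2, the neuronal enolase, was between 1.86 and 2.67 CPM in wildtype and between 3.82 and 6.68 CPM in PKD kidneys (1.11 ± 0.14, adjusted p = 7.48e-08), without overlap, and gave 1.04 and 1.21 against the sets. Of the 8 pyruvate dehydrogenase genes 5 fell: Pdha1 by 0.41, Pdhb by 0.18 and Dlat by 0.20, which encode subunits of the complex, and Pdp2 by 0.24 and Pdpr by 0.78, which encode a phosphatase and its regulatory subunit. The call of Dlat was lost against the first set (-0.16, adjusted p = 0.0546) and that of Pdp2 against the second (-0.17, adjusted p = 0.189). Hif1a and the other 4 tested regulators had no call.

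Salsalate for 2 weeks left most of the 39 genes near their PKD level. Of these genes 1 rose and none fell by edgeR's quasi-likelihood test, 2.56% of the members beside 0.580% of all genes (0.251% higher and 0.329% lower). The members' median log2 fold change was 0.01 and that of all genes -0.01, and single values ran from -0.24 to 0.31. At an unadjusted p under 0.05 there were 6 members (15.4%), beside 10.3% of all genes, and the groups overlapped for all 39 (0.0287% of all genes had no overlap). For 36 members the 95% interval lay within 0.5 of 0 on the log2 scale.

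Aldoc was the gene that rose. All 12 PKD + Salsalate kidneys, at 17.4 to 24.2 CPM, were above the PKD median of 16.4 CPM, and the log2 fold change was 0.31 ± 0.07 (adjusted p = 0.0264). The call was lost without PKD replicate 1 or 9 or without PKD + Salsalate replicate 5 or 12, where the value was 0.29 in each and the adjusted p between 0.0535 and 0.0574. The other 5 members with an unadjusted p under 0.05 did not pass after adjustment: Pgam2 (0.22 ± 0.11, above the PKD median in 11 of 12 kidneys), Pfkfb4 (0.18 ± 0.07, 8 of 12), Aldoa (0.14 ± 0.06, 11 of 12), Pfkm (0.12 ± 0.05, 9 of 12) and Ldhd (-0.22 ± 0.11, below in 11 of 12), with adjusted p between 0.276 and 0.474. None of the 36 further genes passed. Slc5a2, the main glucose carrier of the early proximal tubule, gave 0.27 ± 0.07 (adjusted p = 0.060).

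**Figure D5:**
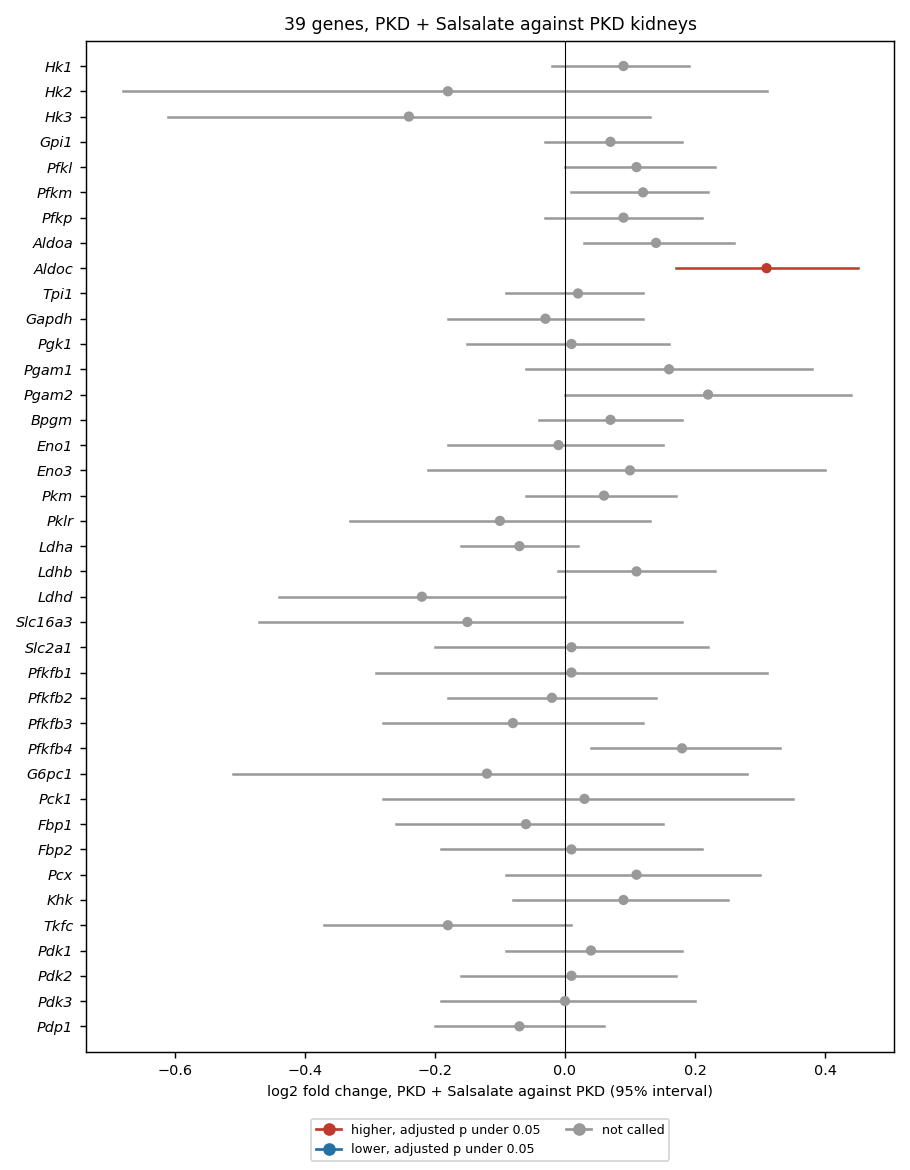
Log2 fold change (horizontal axis) of each of the 39 genes (rows, in pathway order) in PKD + Salsalate (n = 12) against PKD (n = 12) kidneys, with its 95% interval as a bar. Aldoc at 0.31 is the gene called, and the intervals of Hk2, Hk3 and G6pc1 are the 3 that reach beyond 0.5 from 0.

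The ratio of the lactate dehydrogenase subunits moved with salsalate although neither gene passed alone. Ldha was between 778 and 931 CPM (median 878) in PKD and between 723 and 930 CPM (median 834) in PKD + Salsalate kidneys, and gave -0.07 ± 0.04 (adjusted p = 0.635). Ldhb was between 1304 and 1584 CPM (median 1437) and between 1396 and 1666 CPM (median 1550), and gave 0.11 ± 0.06 (adjusted p = 0.546). Within kidneys, the ratio of Ldha to Ldhb counts was between 0.562 and 0.699 (median 0.608) in PKD and between 0.484 and 0.577 (median 0.533) in PKD + Salsalate kidneys. The difference was -0.19 on the log2 scale (95% interval -0.25 to -0.12, permutation p = 1e-05, the smallest that 100000 permutations can give, adjusted p = 0.00011). With any 1 kidney left out it stayed between -0.20 and -0.17. The ratio of wildtype kidneys was between 0.567 and 0.853 (median 0.751), highest in the first set and within the PKD range in the second.

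Ldhb also rose relative to Ldhd, with median ratios of 1.26 and 1.56 without and with the drug (log2 difference 0.34, 95% interval 0.15 to 0.52, permutation p = 0.00087, adjusted p = 0.00338). Hk1 rose relative to Hk3 (0.37, adjusted p = 0.0403 by permutation), a call kept in 12 of 24 tests that left out 1 kidney and lost with limma on the log ratios (adjusted p = 0.180). Of the 22 pairs 18 did not pass, among them Pfkp to Pfkm (-0.03, 95% interval -0.21 to 0.14) and Fbp1 to Fbp2 (-0.07, 95% interval -0.24 to 0.10).

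Against wildtype, which the previous comparisons share, the PKD + Salsalate kidneys had 8 higher and 11 lower members, 48.7% beside 44.9% of all genes (21.8% higher and 23.2% lower). The median log2 fold change was -0.08, and that of all genes -0.013. The groups did not overlap for 5 members (6.39% of all genes): Pfkm at -0.39, Pgam2 at -1.10, Pkm at -0.54 and Pdk1 at -0.73 were lower, and Fbp2 at 1.19 was higher. Side by side with PKD against wildtype, Eno3 gave -0.74 and -0.84, Pcx -0.48 and -0.59, Slc16a3 0.87 and 1.02, Slc2a1 0.38 and 0.37, and Aldoc -0.11 and -0.42. The calls of Eno3 (0.01, adjusted p = 0.963) and Slc2a1 (-0.05, adjusted p = 0.734) in PKD + Salsalate kidneys were lost against the second wildtype set alone. Ldhb (0.25 ± 0.07, adjusted p = 0.00236) and Pfkfb4 (0.27 ± 0.08, adjusted p = 0.00685) were higher, and Ldha (-0.12 ± 0.05, adjusted p = 0.0464) and Ldhd (-0.32 ± 0.12, adjusted p = 0.0278) lower. The calls of Ldha and Ldhd, with those of Pdp1 and Pfkl, were lost in some of the fits that left out 1 kidney. Of the sets, 1 alone gave a call for each of Ldhb, Pfkfb4, Ldha and Ldhd: Ldhb gave 0.41 and 0.03 (adjusted p = 1.43e-06 and 0.780), Pfkfb4 0.27 and 0.26 (0.0185 and 0.0783), Ldha -0.14 and -0.09 (0.0312 and 0.291) and Ldhd -0.09 and -0.64 (0.551 and 0.00026). Against both wildtype sets in 1 direction, 3 members were higher (Fbp2, Pfkp and Slc16a3, beside 9.95% of all genes) and 6 lower (Pcx, Pdk1, Pfkm, Pgam2, Pkm and Tpi1, beside 6.09%). Of the 36 further genes 5 were higher and 10 lower, 41.7% of those tested. Against both wildtype sets 3 of the 5 and 5 of the 10 were called in that direction, and 7 of the 15 calls were lost. 13 pairs differed, among them Ldha to Ldhb (-0.39, exact permutation, adjusted p = 0.000262), which was -0.55 against the first wildtype set and -0.11 against the second (exact permutation, adjusted p = 0.0698).

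Markers of other cell types also differed between PKD and wildtype kidneys, and their part in the members' values was not tested. All 6 markers of injured tubule rose, with summed levels of 133 to 178 CPM in wildtype, 316 to 458 CPM in PKD and 222 to 530 CPM in PKD + Salsalate kidneys. All 5 fibroblast markers rose, from 287 to 436 CPM in wildtype to 673 to 1193 CPM in PKD. Of 12 proximal tubule markers 2 rose and 3 fell, and of 9 markers of the loop of Henle and distal nephron 5 fell. The summed level of these 9 was 3602 to 4600 CPM in PKD kidneys. It was 3708 to 4779 CPM in the first wildtype set and 5408 to 5820 CPM in the second. Marker calls were not made against each wildtype set alone. None of the markers of these 4 lists or of the leukocyte and red cell lists passed between PKD + Salsalate and PKD kidneys.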

How the data were processed

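The deposited table holds whole-number read counts per gene for 32 kidneys, which the authors made with HTSeq 0.12.4 by strand from poly(A) reads trimmed with cutadapt 2.10 and aligned with STAR 2.7.5a to GRCm39, without normalization. Reads with more than 1 place in the genome are not in the gene counts, and 5 summary lines per kidney were left out. Groups and replicate numbers came from the sample labels. The 39 members, the further pathway genes, the markers and the pairs were chosen with earlier results of these data known. Some genes of these lists and pairs are not reported here.

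The analysis used edgeR 4.0.16 (R 4.3.3). The filter asked for a log2 CPM above 1 in 25% or more of all kidneys, which 13961 genes passed, TMM factors were used, and the 3 groups were fitted together by the quasi-likelihood method without covariates. Tests were 2-sided with Benjamini-Hochberg adjustment over all genes tested and a threshold of 0.05. SE and 95% intervals are those of the log2 fold change. Log2 ratios of counts, with 0.5 added to each, were compared by exact permutation with wildtype and by 100000 permutations between the groups of 12. Every member is given, those called or in a tested pair with values. Of the 53700 gene identifiers, 52610 were found in GENCODE M39, and Akr1b3 of the further genes had no match. The method was tested on simulated data. Alternatives were DESeq2 size factors, upper-quartile factors, DESeq2 1.42.0, limma 3.58.1 (voom), other filters, the 2 groups alone, a replicate block, each kidney left out and each wildtype set alone; for ratios, an added count of 2 and limma. Replicate numbers did not pair the kidneys: the median correlation of same-numbered kidneys was -0.03, -0.12 and 0.03 in the 3 comparisons. A kidney of 11193136 counts has about 11 reads at 1 CPM.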

Additional observations from a re-analysis of the deposited data

Results flagged for a closer look

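In the 8 wildtype kidneys, 61 sets of values were searched for a single kidney far from the rest (39 genes and 22 log2 ratios), and 2 were flagged, where chance flags about 1 in 20. Both came from wildtype replicate 1. Its log2 ratio of Fbp1 to Fbp2 was 5.32, against 6.22 to 6.70 in the other 7 kidneys. Its log2 ratio of Ldhb to Ldhd was 0.667, against -0.149 to 0.189. Without this kidney the Fbp1 to Fbp2 difference between PKD and wildtype was -1.41 in place of -1.27. The groups of 12 kidneys were not searched.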

How the results depend on the processing

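Changes were counted as reversed where the sign changed and the value was called in either fit. With only the wildtype libraries ending in R, 16 members were higher in PKD and 16 in PKD + Salsalate kidneys, and reversed values against wildtype were Pgam1 0.26, Pck1 0.396, Fbp1 0.269 and Tkfc 0.239 for PKD, and Pck1 0.431 and Fbp1 0.212 for PKD + Salsalate. With only the other wildtype libraries, 5 members were higher in each comparison and 17 lower in PKD + Salsalate, and 8 pairs were called for PKD. Reversed there were Pgk1 -0.076, Eno1 -0.258, Slc2a1 -0.069 and G6pc1 -0.567 for PKD, and Pgk1 -0.064, Eno1 -0.266, Eno3 0.013, Pklr -0.368, Slc2a1 -0.052 and G6pc1 -0.676 for PKD + Salsalate. Among ratios, Eno1 to Eno3 was -0.171, Ldha to Ldhb 0.072 and Hk1 to G6pc1 0.28 for PKD, and Eno1 to Eno3 -0.287, Pkm to Pklr 0.047 and Hk1 to G6pc1 0.463 for PKD + Salsalate. These sets hold 5 and 3 kidneys, and the cause of the difference between them was not tested.

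Without the low-count filter 7 members were lower in PKD + Salsalate than in wildtype kidneys, with 33588 genes tested in place of 13961. With a replicate block no member was called between PKD + Salsalate and PKD (Aldoc 0.305 on the log2 scale, as against 0.309 without the block, adjusted p = 0.0534). The replicate numbers are only shared numbers, since a kidney correlated best with its own number in 1 of 8, 1 of 12 and 0 of 8 pairs. Leaving out 1 kidney gave 7 to 10 higher and 12 to 15 lower members for PKD against wildtype, 0 to 1 higher and 0 to 0 lower for PKD + Salsalate against PKD, and 7 to 9 higher and 9 to 13 lower for PKD + Salsalate against wildtype. Called pairs ranged from 12 to 15, 3 to 5 and 11 to 15. Over single genes and pairs, 5021 of the values with 1 kidney left out kept their side of the threshold, 88 lost and 43 gained a call. Values without a call could change sign and still count among the 5021. Low members such as Slc16a3 and Hk3 rest on few reads in the shallow kidneys.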

Other observations

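Members varied more between wildtype kidneys than between kidneys of the other groups. The coefficient of variation of a member had a median of 20.7% in wildtype, 12% in PKD and 11.2% in PKD + Salsalate kidneys. It was highest for G6pc1 in wildtype (64.9%) and for Hk2 in both other groups (36.7% and 36.5%).

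PKD replicate 10 was the kidney with the highest level of liver markers. Without this kidney the change of Aldoc with salsalate was 0.31 on the log2 scale (adjusted p = 0.0372 by edgeR's quasi-likelihood test).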
